A study of Mus musculus with 8 samples.

Results

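The genes described here are 32 genes of the piRNA pathway, of germ granules and of germ cell regulation, measured in the hearts of mouse embryos at E18.5. They were taken from a list of symbols and not from their values, and all 32 were measured, by 43 of the 45101 probe sets on the array, among 18194 genes with a probe set of their own. The list was drawn up with earlier results of these data known, and 6 of the 32 genes (*Rnf17*, *Ddx4*, *Mael*, *Rbm44*, *D1Pas1* and *Fmr1nb*) stand in the list of changed genes that the study chose on the same hearts, so the direction of those 6 is not independent evidence. The hearts came from 3 2lox/2lox embryos and from 5 wild-type littermates. The 2lox/2lox embryos are homozygous throughout the body for a floxed allele of *Lsd1* (*Kdm1a*, formerly *Aof2*), a histone demethylase, in which loxP sites lie in introns and the protein carries a pair of point mutations in its tower domain. The floxed allele is unrecombined and a mutated protein is still made, so these hearts are hypomorphs although their labels also carry the term knock-out. The arrays were made to find genes that differ between the genotypes, in view of the ventricular septal defects of the mutants. RNA came from whole hearts, 1 array per heart, so fewer cells of a type and less RNA per cell cannot be told apart. The labels give neither sex nor litter for each heart, and p-values measure the spread between these 8 hearts.

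Piwi-interacting RNAs (piRNAs) are small RNAs that guide PIWI proteins to transposon transcripts in the germline, where they silence them. Most of the proteins that make or use piRNAs gather in germ granules, or nuage, beside the mitochondria and the nucleus of germ cells. Tudor domain proteins hold these granules together by binding methylated arginines of PIWI proteins. Heart muscle is not known as a site of piRNA production, and most of these genes are best known from testis and ovary.

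The hearts of the 2 genotypes differed at few of these genes. On the deposited log2 scale, *Ddx4*, *Fmr1nb*, *Rnf17*, *Rbm44* and *Mael* rose in 2lox/2lox hearts, by 2.87, 2.47, 1.62, 1.23 and 0.86, and none of the 32 fell past the threshold. Each gene was read by its brightest probe set, the one with the highest mean over all 8 hearts, and called where the limma p, adjusted by Benjamini-Hochberg over all probe sets, was under 0.05. The 5 genes make up 15.6% of the 32, where 0.11% of all 18194 genes were called higher and 0.0385% were called lower. Counting any probe set of a gene added *D1Pas1* and gave 6 higher, or 18.8% of the 32, against 0.126% of all genes. All 6 are the genes that the study had listed. Of the other 26 genes none was called in either direction, at a median difference of -0.01 and a range of -0.95 to 0.29. Without adjustment the limma p was under 0.05 for 1 higher and 4 lower genes. The share of all genes at that unadjusted threshold was not counted, so this and later unadjusted counts have no share to be read against.

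**Figure D1:**
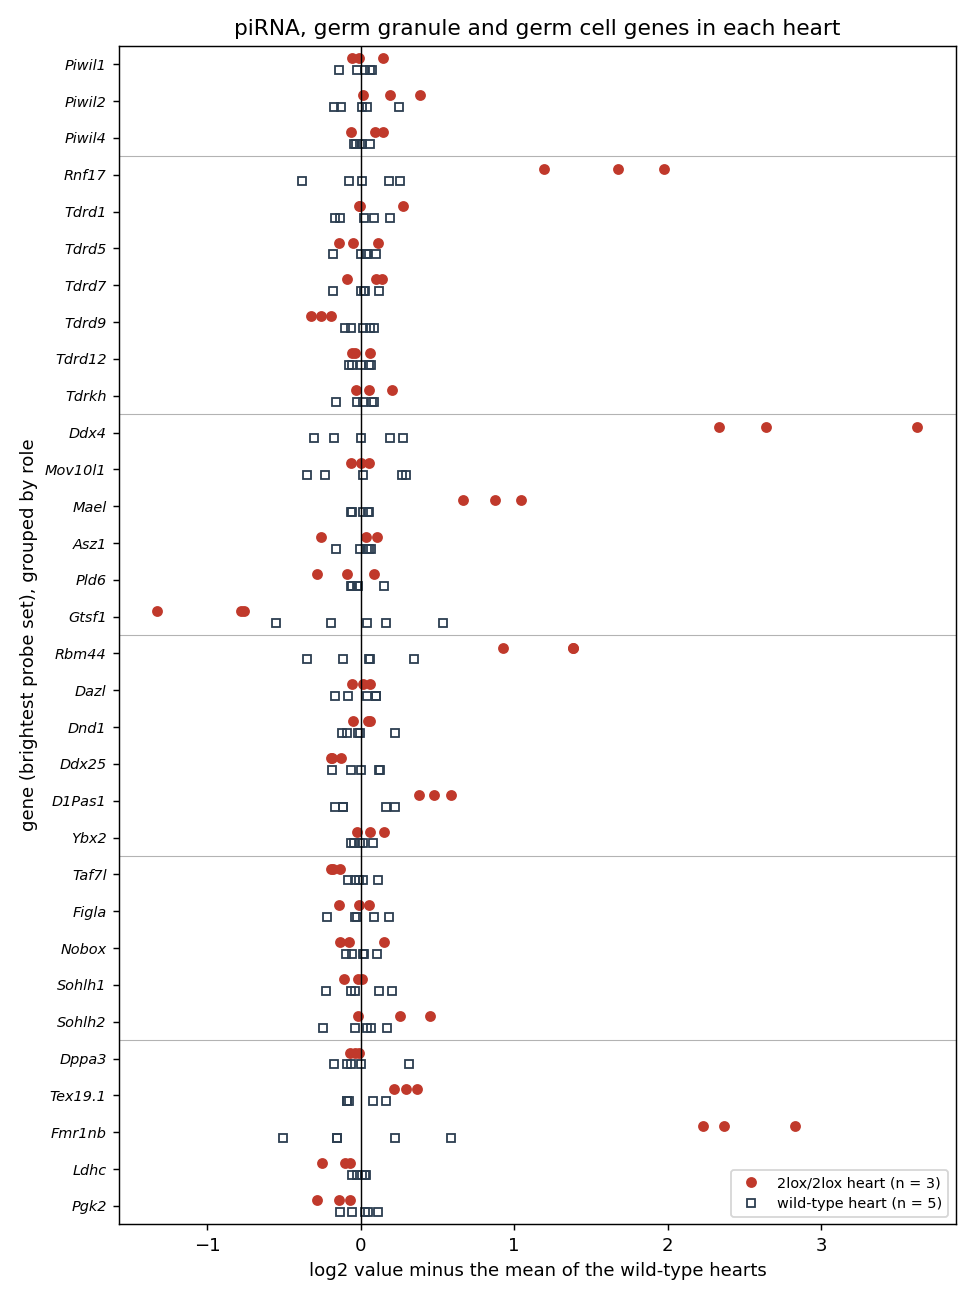
Log2 value of each gene's brightest probe set in every heart, as the difference from the mean of the wild-type hearts (horizontal axis), with the 32 genes grouped by role (vertical axis). Filled circles are the 3 2lox/2lox hearts and open squares the 5 wild-type hearts. *Ddx4*, *Fmr1nb*, *Rnf17*, *Rbm44* and *Mael* lie well to the right in all 3 2lox/2lox hearts, *Gtsf1* lies to the left, and 21 genes overlap between the genotypes.

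Separation of the hearts was also counted, without a test. All 3 2lox/2lox hearts lay above all 5 wild-type hearts at 7 of the 32 genes, where 3.16% of all genes did so, and these were the 5 called genes, *D1Pas1* and *Tex19.1*. All 3 lay below at 4 genes, *Gtsf1*, *Tdrd9*, *Taf7l* and *Ldhc*, where 2.81% of all genes did so. Of the 7 genes above, 6 had been listed by the study from these same hearts, so their separation is not independent evidence. Among the 26 genes outside that list, 1 separated upward and 4 downward. The difference was positive at 17 genes and negative at 15, with a median of 0.01, and over all genes it was positive at 48.0% with a median of -0.00.

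Many of these genes read within the range of sensory receptor probe sets, whose genes were assumed to be silent in heart. The array carries 84 probe sets for 76 odorant, vomeronasal and taste receptor genes, whose means had a median of 3.98 and reached 6.25. Their 95th percentile, a log2 value of 4.86, was taken as the background line. In both genotypes, 16 of the 32 genes had means at or under that line, or 50.0%, against 29.7% of all genes. The 16 were *Piwil1*, *Piwil2*, *Piwil4*, *Tdrd1*, *Tdrd5*, *Tdrd9*, *Tdrd12*, *Mael*, *Pld6*, *Dazl*, *Taf7l*, *Figla*, *Nobox*, *Sohlh1*, *Ldhc* and *Pgk2*. Another 3 genes, *Ddx4*, *D1Pas1* and *Tex19.1*, passed the line in 2lox/2lox hearts only. The remaining 13 were above it in both genotypes. The line is only a guide, because the lower quartile of all values (4.21) left 5 genes at background in place of 16.

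Of the 6 raised genes 4 have a promoter in the RefSeq table used here, and their sequences are shown because the genes rose in the same hearts. The windows run from 250 bases before the annotated start to 30 bases after it, read 5′ to 3′ on the gene's own strand in GRCm38.p6. They lie at chr13:112652281-112652560 (minus strand, *Ddx4*), chrX:68761589-68761868 (plus strand, *Fmr1nb*), chr1:166238715-166238994 (minus strand, *Mael*) and chr1:186967166-186967445 (plus strand, *D1Pas1*). Capitals mark matches to 3 motifs: the E-box CACGTG, the E2F letters TTCCCGC or GCGGGAA, and the palindrome CTCGCGAG, which was searched for after these sequences had been read.
Ddx4: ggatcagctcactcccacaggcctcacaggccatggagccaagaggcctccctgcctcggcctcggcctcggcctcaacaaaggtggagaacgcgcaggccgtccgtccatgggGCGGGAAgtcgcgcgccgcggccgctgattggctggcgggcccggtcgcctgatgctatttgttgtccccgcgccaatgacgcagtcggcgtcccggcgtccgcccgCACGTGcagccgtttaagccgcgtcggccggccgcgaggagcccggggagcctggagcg
Fmr1nb: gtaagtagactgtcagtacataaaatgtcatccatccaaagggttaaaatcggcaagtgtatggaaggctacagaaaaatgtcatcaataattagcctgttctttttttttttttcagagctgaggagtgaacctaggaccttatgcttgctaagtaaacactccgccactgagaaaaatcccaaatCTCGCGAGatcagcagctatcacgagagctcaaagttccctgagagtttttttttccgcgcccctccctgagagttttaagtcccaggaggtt
Mael: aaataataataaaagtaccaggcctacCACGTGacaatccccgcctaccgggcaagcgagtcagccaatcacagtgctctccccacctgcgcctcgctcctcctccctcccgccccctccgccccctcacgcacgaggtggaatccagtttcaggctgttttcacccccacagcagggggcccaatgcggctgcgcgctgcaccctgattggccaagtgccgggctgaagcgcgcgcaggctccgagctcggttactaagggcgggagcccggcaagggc
D1Pas1: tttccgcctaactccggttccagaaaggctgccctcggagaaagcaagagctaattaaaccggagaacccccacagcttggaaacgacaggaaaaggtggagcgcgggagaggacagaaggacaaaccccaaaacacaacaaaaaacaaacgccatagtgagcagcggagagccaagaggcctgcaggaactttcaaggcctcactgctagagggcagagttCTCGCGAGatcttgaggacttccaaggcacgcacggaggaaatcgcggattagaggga

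These promoters held more CpG, the dinucleotide that DNA methylation targets, than the median of the table. Over the full 300-base windows of the table (250 before to 50 after the start), the ratio of observed to expected CpG was 0.98 for *Ddx4*, 0.78 for *Mael*, 0.71 for *D1Pas1* and 0.62 for *Fmr1nb*. Their median was 0.743, against 0.574 for the 32 promoters of the other 23 genes with an entry and 0.384 for all 32851 promoters of the table. A ratio of at least 0.6 was found in 4 of the 4, in 15 of those 32 promoters and in 35.8% of all promoters. The ratios of those 32 promoters ran from 0.00 at a *Piwil4* promoter to 1.11 at a *Tdrd7* promoter, a range that holds all 4 raised genes. Several genes have more than 1 promoter in the table, and some of these windows overlap.

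The motifs were searched on both strands, and the E-box and E2F letters occurred at raised and unraised genes. The E-box occurred in 11 of the 36 promoters of these genes (30.6%), against 7.15% of all promoters. It began 29 bases before the start of *Ddx4* and 223 bases before that of *Mael*, and it also occurred at genes that did not pass the test, such as *Sohlh1*, *Piwil1* and *Tdrd9*. An E-box of *Tdrd1* lies in overlapping windows and is counted in each. CACGTG holds a CpG, and the 36 promoters had a median of 17 CpG and 61.8% GC, against 7 and 52.7% for all promoters. The motif shares were not matched for this. The E2F letters occurred in 2 of the 36, those of *Ddx4*, 136 bases before the start, and of *Tdrd5*, against 4.6% of all promoters. *Ddx4* was the only one of the 36 with both, as were 0.457% of all promoters. The palindrome lay 28 bases before the start of *D1Pas1* and 63 bases before that of *Fmr1nb*. It lay in 0 of the 32 other promoters and in 0.919% of all. It was chosen after the sequences of the raised genes had been read, so these shares are not evidence of a link to the rise. A match is a description of these letters and not a binding site. *Rnf17*, *Rbm44*, *Piwil2*, *Dnd1* and *Dppa3* had no entry.

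The 3 PIWI genes did not pass the test. *Piwil1* (Miwi), *Piwil2* (Mili) and *Piwil4* (Miwi2) encode the proteins that carry piRNAs. *Piwil2* read 4.46, 4.29 and 4.66 in the 2lox/2lox hearts, against 4.10, 4.15, 4.52, 4.32 and 4.28 in the wild-type hearts, a difference of 0.20 (SE 0.11, limma adjusted p = 0.563). The differences of *Piwil1* and *Piwil4* were 0.03 and 0.06. All 3 genes lay under the background line in both genotypes and their hearts overlapped.

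Among the 7 Tudor domain genes *Rnf17* rose and the other 6 did not pass the test. *Rnf17*, on chromosome 14, encodes a RING finger and Tudor protein of a granule in male germ cells. It read 6.55, 6.85 and 6.07 in the 2lox/2lox hearts, against 4.80, 5.06, 4.88, 4.49 and 5.13 in the wild-type hearts. Every 2lox/2lox heart was above every wild-type heart, with heart 2 the highest and heart 3 the lowest of the 3. The means were 6.49 ± 0.39 in 2lox/2lox and 4.87 ± 0.25 in wild-type hearts (SD, n = 3 and 5), a 3.06-fold difference (log2 1.62, SE 0.18, limma adjusted p = 0.00878).

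The other 3 probe sets of *Rnf17* were dimmer and moved less. They differed by 0.44, 0.37 and 0.28 (limma adjusted p = 0.206, 0.102 and 0.225), and in each the 2lox/2lox hearts lay above the wild-type hearts. Only the brightest of the 4 passed the test, and the wild-type mean of that probe set lay close to the background line.

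**Figure D2:**
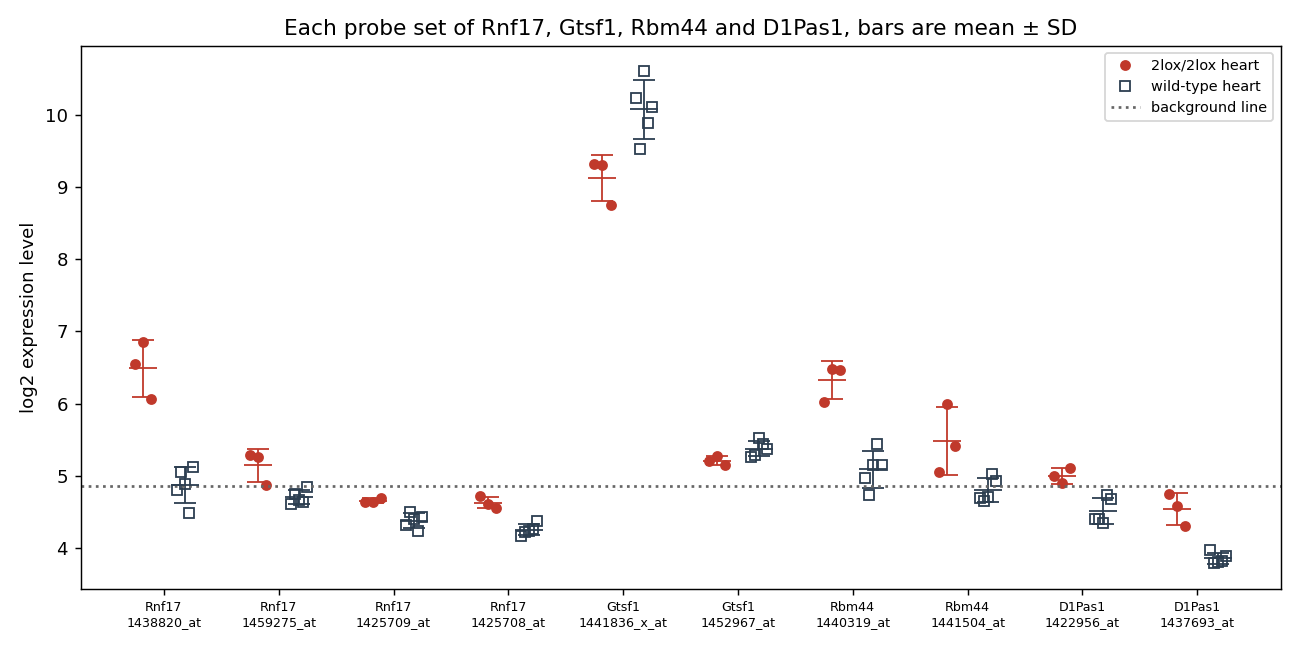
Log2 level (vertical axis) of every probe set of *Rnf17*, *Gtsf1*, *Rbm44* and *D1Pas1* (horizontal axis), with filled circles for 2lox/2lox hearts, open squares for wild-type hearts, bars for mean ± SD (n = 3 and 5) and a dotted background line at 4.86. All 4 probe sets of *Rnf17* separate the genotypes upward, while the bright probe set of *Gtsf1* separates them downward and its dim one overlaps.

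The 6 other Tudor genes were dim or flat. *Tdrd7*, which is also needed in the lens, read 7.88 ± 0.12 in 2lox/2lox and 7.83 ± 0.11 in wild-type hearts. *Tdrkh*, which holds PIWI proteins at the mitochondrion, read 5.61 ± 0.12 in 2lox/2lox and 5.53 ± 0.10 in wild-type hearts. *Tdrd1*, a partner of Piwil2, differed by 0.09, *Tdrd5*, of the chromatoid body, by -0.02, and *Tdrd12* by -0.01, all under the line. *Tdrd9*, a helicase that works with Piwil4, read 4.35, 4.29 and 4.41 in 2lox/2lox hearts, against 4.51 to 4.69 in wild-type hearts. Its groups did not overlap, but the difference of -0.26 did not pass (limma adjusted p = 0.228) and the gene was under the line.

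The other 6 piRNA and germ granule factors held the largest difference of all 32 genes. *Ddx4*, the mouse homologue of fly vasa, encodes an RNA helicase that is a standard marker of germ cells. On chromosome 13, it read 6.70, 7.68 and 6.39 in the 2lox/2lox hearts, against 4.34, 3.75, 3.88, 4.25 and 4.06 in the wild-type hearts. The lowest 2lox/2lox heart was 2.05 above the highest wild-type heart, and heart 2 was again the highest. The means were 6.92 ± 0.68 in 2lox/2lox and 4.06 ± 0.24 in wild-type hearts (SD, n = 3 and 5), so that *Ddx4* was under the background line in every wild-type heart and above it in every 2lox/2lox heart. The difference was 7.29-fold (log2 2.87, SE 0.25, limma adjusted p = 0.00198).

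*Mael* encodes maelstrom, a nuage protein needed to silence transposons in spermatocytes. It read 4.74, 4.53 and 4.91 in the 2lox/2lox hearts, against 3.92, 3.88, 3.81, 3.91 and 3.80 in the wild-type hearts. The gap between the groups was 0.61, and here heart 3 was the highest of the 2lox/2lox hearts. The difference was 1.82-fold (log2 0.86, SE 0.08, limma adjusted p = 0.00318), with means of 4.73 ± 0.19 in 2lox/2lox and 3.87 ± 0.06 in wild-type hearts (SD, n = 3 and 5). Both means lay under the background line, so *Mael* was called from a level that sensory receptor probe sets also reach.

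*Gtsf1* went the other way without passing the test. It encodes a small zinc finger protein that binds PIWI proteins. Its bright probe set read 9.31, 9.30 and 8.75 in the 2lox/2lox hearts, against 10.24, 9.52, 10.61, 9.88 and 10.11 in the wild-type hearts. The groups were 0.21 apart, and the means of 9.12 ± 0.32 in 2lox/2lox and 10.07 ± 0.41 in wild-type hearts (SD, n = 3 and 5) differed by -0.95 (SE 0.22, limma adjusted p = 0.213). The second, dimmer probe set of the gene read 5.21 ± 0.07 in 2lox/2lox and 5.38 ± 0.11 in wild-type hearts, a difference of -0.16 with overlapping groups (limma adjusted p = 0.447). The suffix x in the name of the bright probe set marks probes that can also bind other transcripts.

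*Mov10l1*, *Asz1* and *Pld6* did not pass the test. *Mov10l1* encodes the helicase that feeds precursor RNA into piRNA production, and a shorter product of this gene is known from heart muscle. It read 8.53, 8.58 and 8.46 in the 2lox/2lox hearts, against 8.54, 8.18, 8.79, 8.29 and 8.82 in the wild-type hearts, so it was well above background in all 8 hearts, with a difference of -0.00 (SE 0.14, limma adjusted p = 0.998). *Asz1*, of the nuage beside mitochondria, differed by -0.04 and *Pld6*, a mitochondrial outer membrane protein of piRNA processing, by -0.09.

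**Figure D3:**
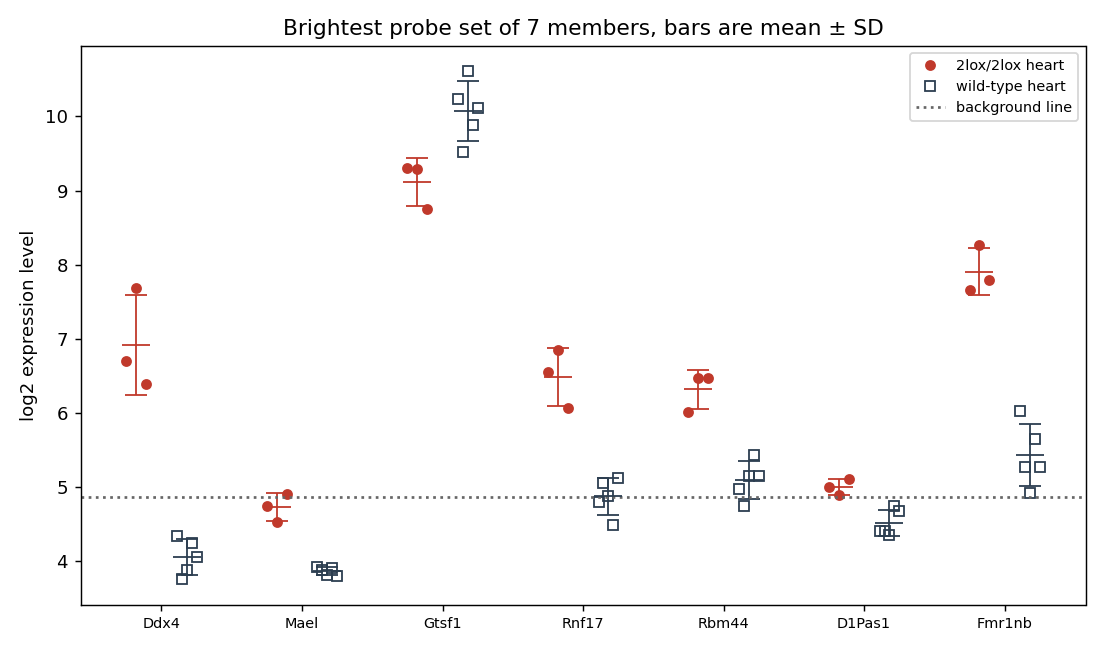
Log2 level (vertical axis) of the brightest probe set of 7 genes (horizontal axis) in each 2lox/2lox heart (filled circles) and each wild-type heart (open squares), with mean ± SD (n = 3 and 5) and a dotted background line at 4.86. *Ddx4* and *D1Pas1* lie under the line in wild-type hearts and above it in 2lox/2lox hearts, and *Gtsf1* is the one gene of the 7 that is lower in 2lox/2lox hearts.

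Of the 6 germ cell RNA regulators *Rbm44* rose, and *D1Pas1* rose at 1 of its probe sets. *Rbm44* encodes an RNA-binding protein of the bridges between germ cells. It read 6.02, 6.47 and 6.47 in the 2lox/2lox hearts, against 4.98, 4.74, 5.14, 5.43 and 5.15 in the wild-type hearts. All 2lox/2lox hearts were above all wild-type hearts, and the means of 6.32 ± 0.26 in 2lox/2lox and 5.09 ± 0.26 in wild-type hearts (SD, n = 3 and 5) differed 2.35-fold (log2 1.23, SE 0.15, limma adjusted p = 0.0228). Its second probe set read 5.05, 5.99 and 5.41 in the 2lox/2lox hearts, against 4.66 to 5.03 in the wild-type hearts. There the groups were only 0.02 apart and the difference of 0.68 did not pass (SE 0.18, limma adjusted p = 0.243).

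*D1Pas1* is an intronless relative of the X-linked helicase gene *Ddx3x* that is active in male germ cells, and its probes could bind related transcripts. Its dimmer probe set passed the test at 4.74, 4.58 and 4.31 in the 2lox/2lox hearts, against 3.98, 3.79, 3.81, 3.82 and 3.89 in the wild-type hearts (log2 0.69, SE 0.09, limma adjusted p = 0.0309). Its brighter probe set read 4.99, 4.90 and 5.11 in the 2lox/2lox hearts, against 4.40, 4.40, 4.35, 4.74 and 4.68 in the wild-type hearts, and did not pass (log2 0.48, SE 0.10, limma adjusted p = 0.177). Both probe sets separated the genotypes in the same direction, at levels near the background line. *Dazl*, *Dnd1*, *Ddx25* and *Ybx2*, which bind or unwind RNA in germ cells, differed by 0.01, 0.02, -0.17 and 0.06, with overlapping groups.

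None of the 5 germ cell transcription regulators was called. *Sohlh2*, a helix-loop-helix factor of early germ cells, was the only one above the background line, at 5.38 ± 0.24 in 2lox/2lox and 5.15 ± 0.16 in wild-type hearts (limma adjusted p = 0.508). *Sohlh1*, *Nobox* and *Figla*, best known from the early oocyte or spermatogonia, differed by -0.04, -0.02 and -0.03. *Taf7l*, an X-linked relative of a general transcription factor subunit, read 3.71 to 3.77 in 2lox/2lox and 3.82 to 4.01 in wild-type hearts, a separation under the line that did not pass the test (log2 -0.17, limma adjusted p = 0.348).

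Among the last 5 genes *Fmr1nb* rose. *Fmr1nb* lies beside *Fmr1* on the X chromosome and is best known as a testis gene that some tumours switch on in humans. It read 7.66, 8.26 and 7.79 in the 2lox/2lox hearts, against 6.02, 5.28, 4.92, 5.65 and 5.28 in the wild-type hearts. Every heart of both genotypes was above the background line, which held for no other called gene, and the groups were 1.64 apart. The means were 7.90 ± 0.31 in 2lox/2lox and 5.43 ± 0.42 in wild-type hearts (SD, n = 3 and 5), a 5.56-fold difference (log2 2.47, SE 0.22, limma adjusted p = 0.00218).

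The other 4 did not pass the test. *Tex19.1*, which guards germ cells against transposons, read 4.79, 4.87 and 4.94 in the 2lox/2lox hearts, against 4.50, 4.66, 4.74, 4.49 and 4.49 in the wild-type hearts, and these groups did not overlap (log2 0.29, SE 0.08, limma adjusted p = 0.242). *Dppa3* (Stella), of primordial germ cells and oocytes, differed by -0.04. The sperm enzymes *Ldhc* and *Pgk2* differed by -0.14 and -0.17 under the line, and the second probe set of *Ldhc* by 0.00.

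Other genes of the pathway did not pass the test. Of 28 further genes that act in or beside the piRNA pathway, 22 had a probe set, and 0 were called in either direction by limma, while without adjustment p was under 0.05 for 3 higher genes and 0 lower ones. Their median difference was 0.06, and 17 of the 22 were positive, where 48.0% of all genes were. At 3 of the 22, *Tex15*, *Gpat2* and *Ago2*, all 2lox/2lox hearts lay above all wild-type hearts, as at 3.16% of all genes. They lay below at 0 of the 22, and at 2.81% of all genes. *Tex15*, a partner of Piwil4 in transposon silencing, read 5.25 ± 0.04 in 2lox/2lox and 4.69 ± 0.14 in wild-type hearts (log2 0.55, SE 0.08, limma adjusted p = 0.0542). *Gpat2*, a mitochondrial protein that binds Piwil2, read 4.91 ± 0.05 in 2lox/2lox and 4.45 ± 0.16 in wild-type hearts (log2 0.46, limma adjusted p = 0.154). *Ago2*, the Argonaute of microRNAs, and *Stk31* differed by 0.26 and 0.14 (limma adjusted p = 0.354 and 0.477).

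The markers of other germline and gonadal cells gave no call. Of 15 primordial germ cell markers 0 were called by limma, and without adjustment p was under 0.05 for 2 higher ones (*Ifitm3* at 0.89 and *Ifitm1* at 0.23) and 0 lower ones. *Dppa4* and *Zfp42* came next, at -0.11 and 0.10. Of the 15, 9 lay at or under the background line in both genotypes, among them *Pou5f1* and *Nanog*, and 6 lay above it, *Kit* (7.18 in 2lox/2lox and 7.16 in wild-type hearts), *Utf1* (7.08 in 2lox/2lox and 7.14 in wild-type hearts), *Alpl*, *Dppa5a*, *Ifitm3* and *Ifitm1*. All of these but *Ifitm3* and *Ifitm1* were named after their values were seen. The mean level over that list ran from 5.10 to 5.18 in 2lox/2lox and from 4.98 to 5.11 in wild-type hearts. Of 14 gonadal somatic markers, 13 late spermatid markers and 8 oocyte markers, 0 were called, and without adjustment p was under 0.05 for 2, 0 and 0 higher and for 0, 1 and 0 lower markers. The 2 gonadal markers were *Gata4*, also a heart transcription factor, at a difference of 0.36 with all 2lox/2lox hearts higher (limma adjusted p = 0.228), and *Inhbb* at 0.50 (limma adjusted p = 0.425), and the spermatid marker was *Akap3* at -0.16 (limma adjusted p = 0.342). Their list means ran from 5.57 to 5.64, 5.10 to 5.24 and 4.49 to 4.57 in 2lox/2lox hearts, and from 5.47 to 5.61, 5.14 to 5.29 and 4.46 to 4.67 in wild-type hearts. Which cells of the heart carried the raised transcripts was not tested.

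Other properties of the hearts also differed. *Kdm1a*, the mutated gene, fell to 9.44, 9.53 and 9.55 in the 2lox/2lox hearts, against 10.26 to 10.36 in the wild-type hearts (log2 -0.81, SE 0.06, limma adjusted p = 5.15e-04). Over the whole array 28 probe sets were called higher and 8 lower. The 12 cardiac markers were all above background, with list means of 13.01 to 13.10 in 2lox/2lox and 12.97 to 13.06 in wild-type hearts and 0 calls, and without adjustment p was under 0.05 for 1 higher (*Nkx2-5* at 0.27) and 1 lower (*Nppa* at -0.27). All 17 myeloid markers were positive, with a median difference of 0.45, 2 called higher (*Lgals3* and *Cybb*), 13 at an unadjusted p under 0.05, 1 under the line and list means of 6.64 to 6.92 in 2lox/2lox and 6.11 to 6.51 in wild-type hearts, and their part in the result was not tested. Of 8 lymphoid and 5 erythroid markers 0 were called, with 0 in either direction under an unadjusted p of 0.05. The lymphoid list means ran from 4.79 to 4.89 in 2lox/2lox and from 4.76 to 4.87 in wild-type hearts. The erythroid list means ran from 7.51 to 8.29 in 2lox/2lox and from 7.05 to 8.71 in wild-type hearts. A spread as wide as the erythroid one limits what a lack of calls can show. By *Xist* and the Y-linked genes, 2lox/2lox heart 3 and wild-type heart 2 were female and the other 6 male. In male hearts alone, a comparison added after the data had been seen, the same 5 genes were called, with *Fmr1nb* at 2.49 (limma adjusted p = 0.0247). The 2lox/2lox hearts in it were hearts 1 and 2, which also stood apart in RNA quality, as given below. Sex and RNA quality therefore cannot be told apart among the 2lox/2lox hearts.

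RNA quality differed between the 2lox/2lox hearts. The difference between 3′ and 5′ control probe sets of *Actb* and *Gapdh*, which grows as RNA is degraded, was 0.52, 0.50 and 0.33 in 2lox/2lox hearts 1, 2 and 3, against 0.32 to 0.38 in wild-type hearts. With this difference as a covariate, *Mael* alone remained called (log2 1.01, limma adjusted p = 0.0197), while *Ddx4*, *Fmr1nb*, *Rnf17* and *Rbm44* kept positive differences, between 1.25 for *Rnf17* and 2.56 for *Fmr1nb*, with limma adjusted p = 0.0762, 0.0725, 0.169 and 0.156. The called probe set of *D1Pas1* differed by 0.50 with the covariate (limma adjusted p = 0.553). Only 2lox/2lox hearts exceeded the wild-type range of the 3′ to 5′ difference, so this fit cannot fully separate it from genotype. In 2lox/2lox heart 3 alone against the wild-type hearts, also added later, the differences were 2.33 for *Ddx4*, 2.36 for *Fmr1nb*, 1.20 for *Rnf17*, 1.38 for *Rbm44*, 1.04 for *Mael* and 0.45 for the called probe set of *D1Pas1*, values of 1 heart that carry no spread of their own genotype.

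Some calls depended on single hearts, although the differences kept their direction. Leaving out each of the 8 hearts in turn, *Ddx4*, *Fmr1nb* and *Mael* were called each time, with highest limma adjusted p of 0.0144, 0.0164 and 0.0322. *Rnf17* missed the threshold without 2lox/2lox heart 1 (log2 1.59, limma adjusted p = 0.0699) and without wild-type heart 1 (log2 1.60, adjusted p = 0.0544), at differences close to that over all hearts. *Rbm44* missed it without 2lox/2lox heart 2 (log2 1.16, adjusted p = 0.111) and without wild-type heart 1 or 3 (log2 1.20 and 1.25), so that 3 to 5 genes were called. The dimmer probe set of *D1Pas1* was kept only without 2lox/2lox heart 3, and reached an adjusted p of 0.162 without 2lox/2lox heart 2.

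**Figure D4:**
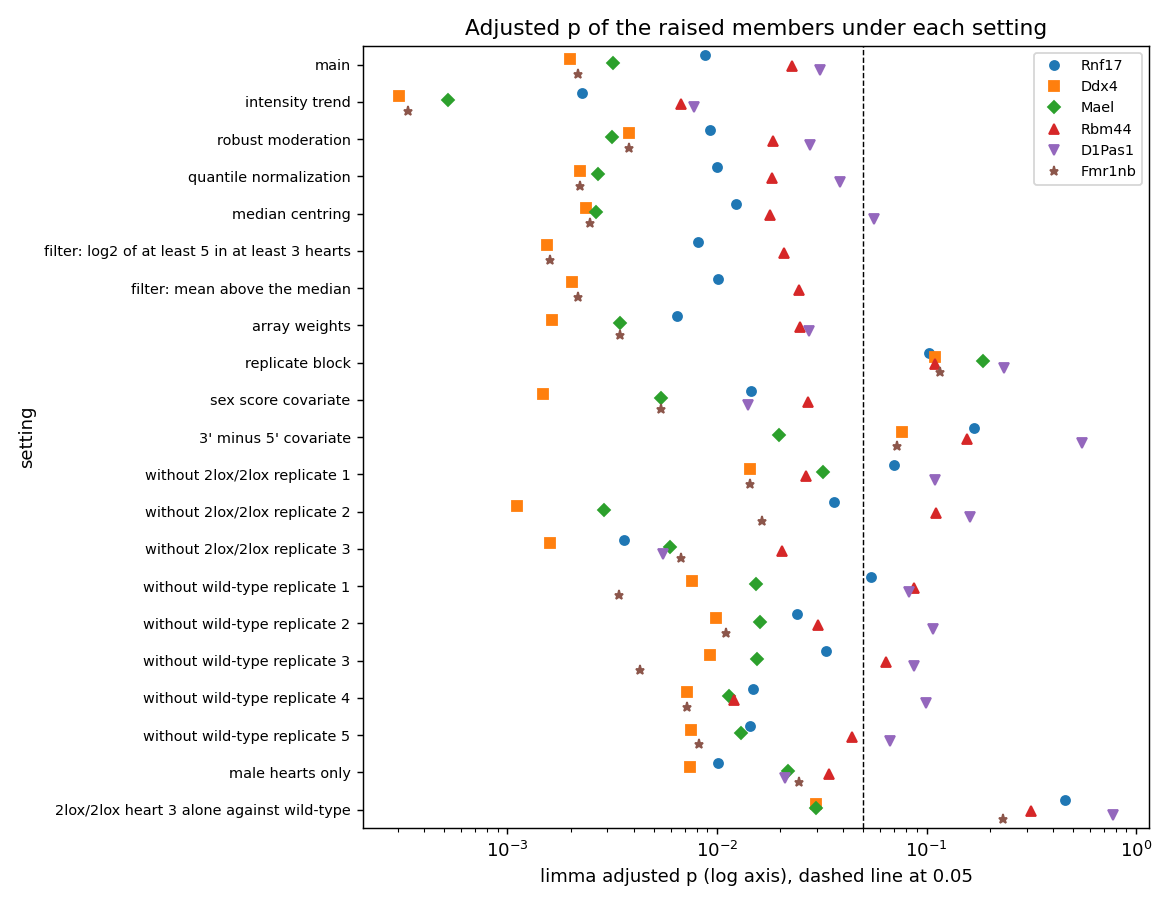
Limma adjusted p (horizontal log axis, dashed line at 0.05) of the 6 raised genes, 1 symbol per gene, under the analysis as reported (main) and each other setting (vertical axis). *Ddx4*, *Fmr1nb* and *Mael* stay left of the line whichever single heart is left out, while all 6 lie right of it with the replicate block. The lowest setting has 1 2lox/2lox heart, assumed to vary like the wild-type hearts.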

How the data were processed

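RNA from 3 2lox/2lox and 5 wild-type E18.5 hearts was hybridized to Affymetrix Mouse430 arrays. The authors deposited normalized log2 values, 1 per probe set and heart. The sources used here do not name their normalization method, which would affect low values most. The array medians were 5.03 to 5.10, and no further normalization was applied. Arrays have no depth, and their number limits the precision.

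Groups came from the labels. The main test was limma 3.58.1 under R 4.3.3, a tool that the submitters' processing notes also name. The lmFit and eBayes steps used neither a trend nor robust moderation. The contrast was 2lox/2lox minus wild-type, p-values were two-sided and adjusted over 45101 probe sets (Benjamini-Hochberg), and the threshold was 0.05. The script was tested on simulated data. Platform annotation, which can be old, was updated through a RefSeq table of GRCm38.p6 (99.4% of probe sets with 1 gene matched). Of all probe sets, 34958 had 1 gene, 932 several and 9211 none. Promoters came from RefSeq, with an entry for 27 of the 32 genes.

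The genes, the lists and the tests were chosen with earlier results of these data known. Every gene of the 32 is named. Values per heart are given for genes with a called probe set, for those whose groups did not overlap and whose means differed by at least 0.3, and, chosen after their values were seen, for *Tdrd9*, *Tex19.1*, *Piwil2* and *Mov10l1*. Of each further list at most 4 genes, those with the smallest p, are named, and others are marked as named after their values were seen. The mean of its genotype was subtracted from each probe set, and the remaining deviations were correlated between hearts. Between hearts with the same replicate number these correlations were 0.01, -0.08 and -0.05, and the hearts were not treated as pairs. Alternatives were other moderation, normalization, filters, covariates, probe set rules and leaving out each heart.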

Additional observations from a re-analysis of the deposited data

Results flagged for a closer look

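One value stood apart from its group. *Pld6* read 4.78 in wild-type heart 5, against 4.56 to 4.61 in the other 4 wild-type hearts, a gap of 0.785 of the whole range where 0.71 is the limit for 5 samples. It was 1 of 45 probe sets examined in the wild-type hearts, and chance flags about 1 in 20. All of these values lie under the background line.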

How the results depend on the processing

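Alternatives were run for the counts and for the probe sets of *Ddx4*, *Fmr1nb*, *Rnf17*, *Rbm44*, *Mael*, *D1Pas1*, *Gtsf1* and *Kdm1a*, and none of these probe sets changed direction. Of their values, 251 of 287 stayed on their side of the threshold, 33 were no longer past it and 3 came past it. With the replicate number as a block, 0 probe sets were called higher and 0 lower, in place of 28 and 8, with 0 of the 32 genes and 0 marker genes higher, while the differences of the 5 genes called over all hearts lay between 0.86 (*Mael*) and 2.93 (*Ddx4*), in place of 0.86 and 2.87. The numbers were not treated as pairs, and that fit rests on fewer residual degrees of freedom. Fitting the difference between 3′ and 5′ control probe sets alongside genotype, the counts were 8 and 1 probe sets, 1 of the 32 genes (*Mael*) and 0 markers. That difference was partly tied to genotype, so the fit cannot fully separate them. A filter on means above the median gave 16 probe sets higher and 1 marker. It and the filter on values of at least 5 each tested 14 of the 32 genes and called 4 of the same 5, without *Mael*, which they leave out. Quantile normalization, median centring and the sex score each gave 1 marker higher in place of 2, and the intensity trend gave 1 further piRNA pathway gene higher in place of 0. Leaving out 1 heart gave 13 to 459 probe sets higher, 4 to 338 lower, 3 to 5 of the 32 genes, 0 to 1 further pathway genes and 0 to 4 markers, the highest counts of probe sets being without 2lox/2lox replicate 3. Added after the data had been seen, male hearts alone gave 166 probe sets higher, 158 lower, 1 further pathway gene and 0 markers. This fit and that without 2lox/2lox replicate 3 keep only 2lox/2lox hearts 1 and 2, whose 3′ and 5′ control probe sets differed most. 2lox/2lox heart 3 alone gave 6 higher, 0 lower, 2 of the 32 genes (*Ddx4* and *Mael*) and 0 markers, with that 1 heart assumed to vary like the wild-type hearts. An unadjusted p under 0.05 gave 4 of the 32 genes lower in place of 0. The lower quartile as background line left 5 genes at background in place of 16, and the median left 18. Apart from these constructions the cause was not tested. Signal near background limits what can be said of the 16 genes under the line.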
